A study of Mus musculus with 12 samples.

Results

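The genes described here are those of the BMP and TGF-beta signalling pathways, chosen by name among the genes counted by RNA-seq in cultured mouse astrocytes. The list held 44 genes, of which 11 encode BMP and GDF ligands, 2 activin subunits, 3 TGF-beta ligands, 10 receptors, 8 SMAD proteins, 6 antagonists and 4 ID proteins. Of these, 40 were found by their symbol among the 18903 genes of the counts, and all 40 were among the 17938 genes that had enough reads to be tested. The ligand genes *Bmp3*, *Bmp5* and *Gdf5* and the receptor gene *Acvr2b* were not analysed here. Astrocyte cultures were made from brain tissue of WT (hGFAP-cre::Rack7 +/+) and *Rack7*-cKO (hGFAP-cre::Rack7 fl/fl) mice at P1, P6 and P8, which gave 6 groups of 2 libraries and 12 libraries in all. Both genotypes therefore carried the Cre transgene. The ages are those of the mice at dissection, and the cells were then grown in culture before the RNA was taken. The human *GFAP* promoter drives Cre from neural stem cells of the embryonic forebrain onwards, so that deletion is mainly expected in cells of the cortex and hippocampus, whereas the cultures came from brain stripped of meninges and were shaken to take off microglia and oligodendrocytes. The labels call the 2 libraries of a group biological replicates and do not say whether they came from separate animals or cultures, so the p-values measure the spread between these libraries, which may be technical.

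Ligands of this family are secreted dimers that bind a complex of type I and type II receptor kinases. BMPs and GDFs such as GDF5 and GDF6 lead to the phosphorylation of SMAD1, SMAD5 and SMAD9, TGF-betas, activins and GDF11 to that of SMAD2 and SMAD3, and either set enters the nucleus with SMAD4. Secreted antagonists such as noggin, chordin, gremlin and follistatin hold ligands away from their receptors, SMAD6 and SMAD7 inhibit the pathway inside the cell, and the *Id* genes are classic transcriptional targets of BMP signalling. In the developing brain, BMP signals favour the astrocytic fate of neural progenitors, and TGF-beta is a regulator of reactive astrocytes and of microglia.

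Libraries held between 54413504 and 89183250 counted reads. Levels are given as CPM, the reads of a gene relative to the TMM-scaled library size, and a gene was called changed at a Benjamini-Hochberg adjusted p below 0.05 in edgeR's quasi-likelihood test together with a fold change of at least 1.5. With 2 libraries against 2, an exact permutation test can give no two-sided p below 0.333. RACK7 is the product of *Zmynd8* (ENSMUSG00000039671, chr2:165784152-165899016, - strand), and its CPM was higher in the libraries labelled cKO than in those labelled WT at every time point, with 160.4 and 171 against 100 and 104 at P8. The conditional allele removes exons 3 and 4, which a count over the whole gene does not single out, and so the count is no check of the labels. The study also probed RACK7 protein in such cultures by immunoblot, which was not analysed here. All directions below are for the libraries labelled cKO relative to those labelled WT.

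Markers of other cells moved with the labels as well. The summed CPM of meningeal fibroblast markers (11 of 12 listed genes present, among them *Col1a1*, *Col1a2* and *Dcn*) was 378 to 402 in the WT-labelled and 2659 to 2697 in the cKO-labelled libraries at P1, with 9 markers called up. At P6 it was 7694 to 7773 against 2457 to 2635, and at P8 28855 to 30999 against 8191 to 8434, with 9 called down each time. *Lum* was the only one of these 11 markers with no read in a group, and it had none in either P6 library labelled cKO. Endothelial markers (6 of 8 present) summed to 24.9 to 26.9 against 52.7 to 56.2 CPM at P1, with 4 called up. At P6 they summed to 124 to 127 against 61.2 to 67.1 (1 up and 4 down), and at P8 to 150 to 164 against 44.9 to 46.0 (2 up and 2 down). The order given below for the summed fibroblast markers is therefore also theirs, and their part was not tested. Microglia and macrophage markers (10 of 10 present, among them *Cx3cr1*, *P2ry12* and *Csf1r*) summed to 2989.9 to 3053 against 5921 to 5932 CPM at P8, with 7 called up and 1 down. Astrocyte markers (9 of 10 present, among them *Aldh1l1*, *Aqp4* and *Slc1a3*) had sums of 2216 to 2253 and 2109 to 2154 at P1, 1518 to 1705 and 1404 to 1542 at P6, and 1566 to 1949 and 687 to 702 at P8, where 5 were called down. Neural stem and progenitor markers (5 of 6 present) summed to 1099 to 1115 against 1249 to 1268 at P1 and to 1251 to 1278 against 2256 to 2281 at P6. At P8 they summed to 1087 to 1106 against 692 to 699. At P6 and at P8 alike, 3 were called up and 1 down, so that at P8 the sum and most calls went opposite ways. In bulk RNA, fewer cells of a type and less RNA per cell cannot be told apart.

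**Figure D1:**
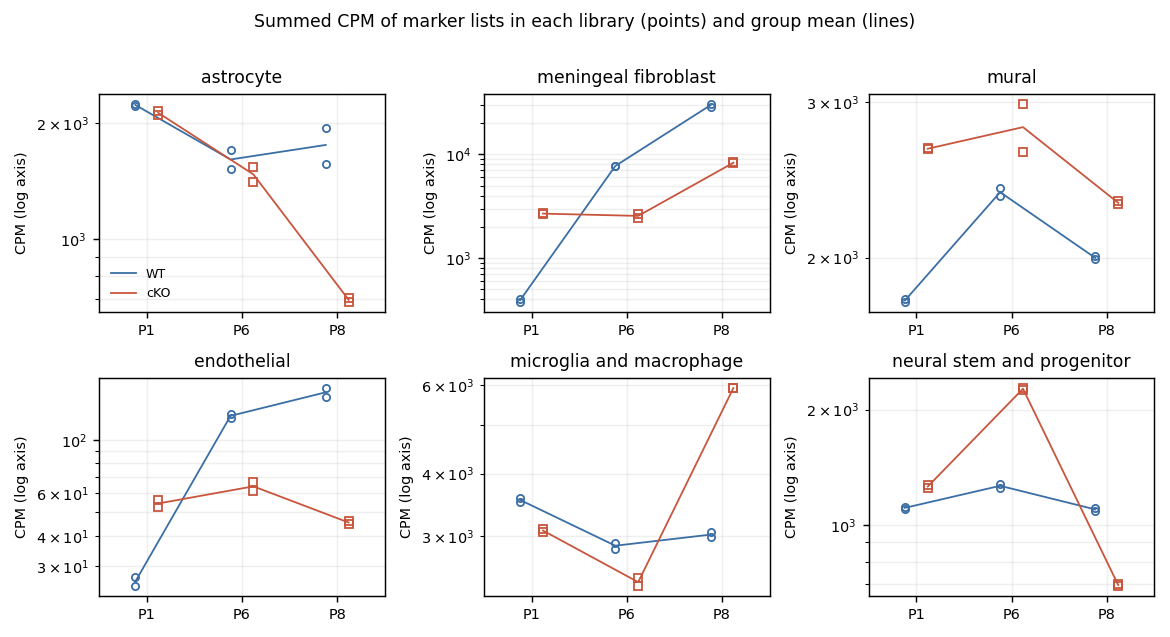
Summed CPM (log axis) of 6 lists of cell type markers at P1, P6 and P8, with circles for WT-labelled and squares for cKO-labelled libraries and lines through the means of 2 libraries. The fibroblast sum was higher in the libraries labelled cKO at P1 and lower at P6 and P8, and the microglia and macrophage sum was higher in them at P8.

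The 250 bases before the annotated start site are shown for the 3 members with the largest changes that have such a window in the RefSeq promoter table (GRCm38.p6), with CG dinucleotides in capitals, because dense CG marks the promoters of many developmental genes. *Grem1* (chr2:113758649-113758898, - strand) had the largest rise at P8, *Gdf10* (chr14:33923337-33923586, + strand) the largest fall at P6 and P8, and *Inhba* (chr13:16011601-16011850, + strand) the largest rise at P1. All 3 sequences read 5′ to 3′ on the strand of the gene.
Grem1: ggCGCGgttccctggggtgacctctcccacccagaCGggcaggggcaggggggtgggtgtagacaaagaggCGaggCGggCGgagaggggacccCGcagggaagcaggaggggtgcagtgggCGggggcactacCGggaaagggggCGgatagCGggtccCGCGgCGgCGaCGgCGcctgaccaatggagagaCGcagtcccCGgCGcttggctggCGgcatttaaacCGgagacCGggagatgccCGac
Gdf10: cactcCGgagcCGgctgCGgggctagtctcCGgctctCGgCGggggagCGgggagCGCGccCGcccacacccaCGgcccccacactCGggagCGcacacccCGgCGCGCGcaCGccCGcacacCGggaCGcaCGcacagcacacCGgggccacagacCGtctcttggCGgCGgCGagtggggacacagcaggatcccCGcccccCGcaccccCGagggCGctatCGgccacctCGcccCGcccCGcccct
Inhba: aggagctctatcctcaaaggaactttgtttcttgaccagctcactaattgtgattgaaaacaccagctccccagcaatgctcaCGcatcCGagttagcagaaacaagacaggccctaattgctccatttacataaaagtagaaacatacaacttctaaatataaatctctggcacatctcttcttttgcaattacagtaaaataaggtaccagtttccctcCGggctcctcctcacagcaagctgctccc
The *Grem1* window holds 24 CG, the *Gdf10* window 35 and the *Inhba* window 3, and as many or more were found in 11.98%, 2.97% and 71.0% of the 32851 windows of the table. The median was 22 CG for the first window of the 28 tested members with a window (1 to 49) and 6 for all windows. All windows include genes that were not tested and further start sites of the same gene. The sets are therefore unlike, here and for the motifs below. The SMAD motif CAGAC, on either strand, was in the first window of 9 of these 28 members and in 42.2% of all windows. GGCGCC, which reads the same on both strands and can overlap CAGAC by 1 base at most, was in 8 of the 28 and in 9.59% of all windows. The other 14 listed genes, among them *Bmp2*, *Gdf6*, *Tgfbr3*, *Nog* and *Id1*, were without a window in the table.

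At P1, 3 members rose and none fell among 40, or 7.50%, while 4.88% of all 17938 genes tested were called (4% up and 0.881% down). DESeq2 also gave 0 members that fell at P1. An unadjusted p below 0.05 in edgeR, which called 8.63% of all genes in either direction, could give none. The lowest log2 fold change of a member at P1 was -0.52 (*Tgfbr1*), short of the fold threshold whatever the p. At P6, 10 members rose and 3 fell (32.5%, against 13.4% of all genes, 7.12% up and 6.32% down), and at P8, 12 rose and 10 fell (55.0%, against 19.4%, 11% up and 8.33% down). The median absolute log2 fold change of the members was 0.20, 0.27 and 0.64 at the successive time points, and that of all genes tested was 0.18, 0.27 and 0.33. In all, 26 members were called at 1 or more time points, 12 of them at 2 and none at all 3, and 14 were called at none. Such counts over several ages were not made for all genes, so these have no share to be set against. The 2 libraries of each label did not overlap for 28 members at P1, 30 at P6 and 35 at P8, while this held for 51.2%, 59% and 70.8% of all genes. *Bmp4*, *Tgfb1*, *Nog* and *Fstl1* were called in opposite directions at different time points.

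**Figure D2:**
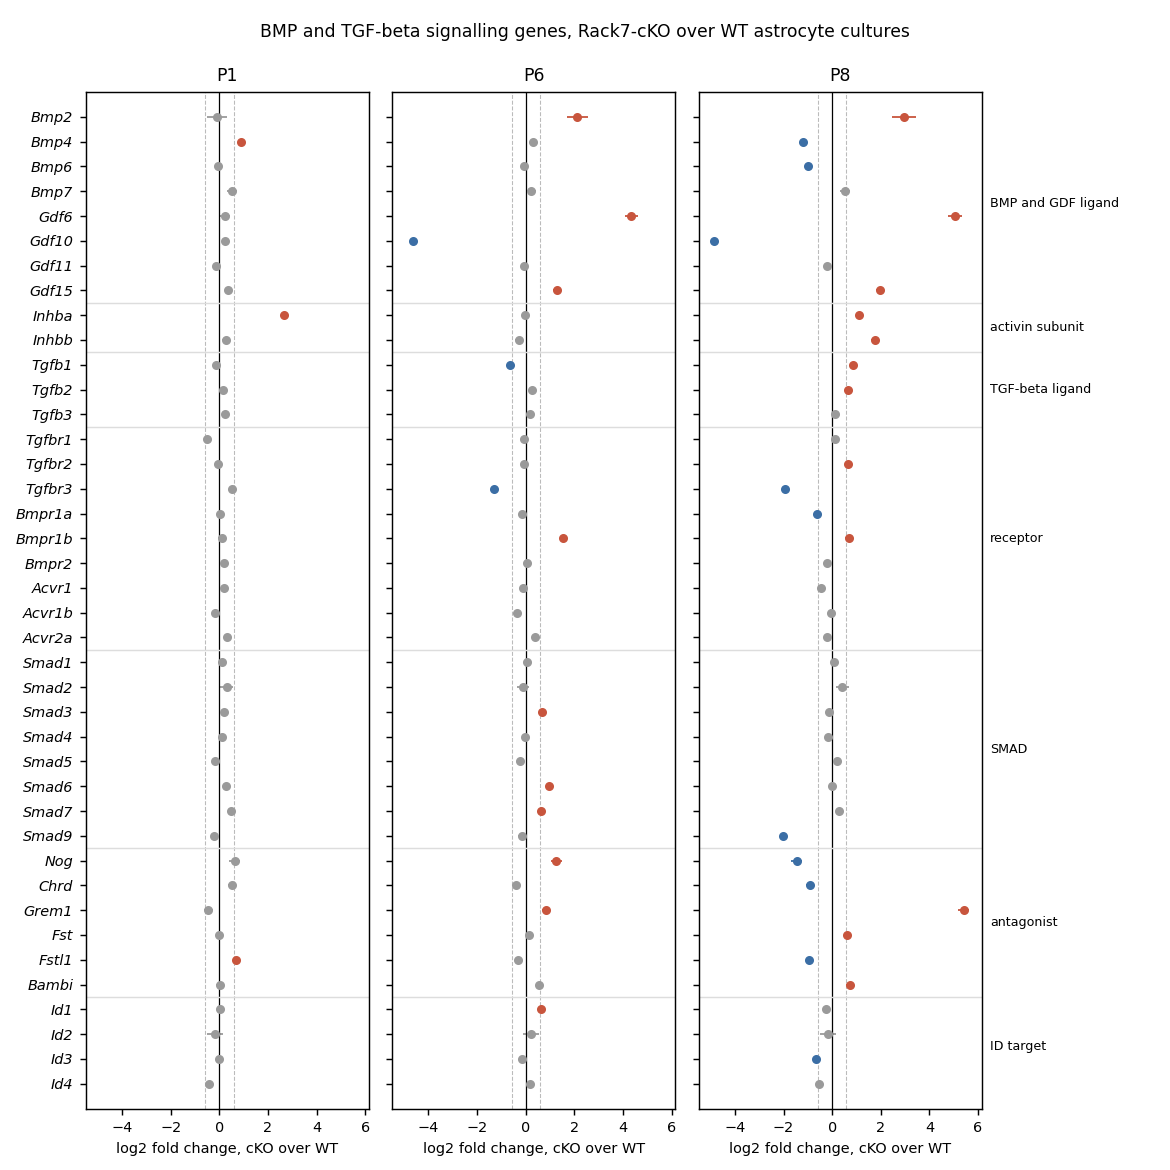
Log2 fold change of the libraries labelled cKO over those labelled WT for the 40 tested members, by role, at P1, P6 and P8 (points, with bars of 1 SE; red called up, blue called down, grey not called; dashed lines at a fold change of 1.5). There were 3 called members at P1, 13 at P6 and 22 at P8. *Grem1*, *Gdf6* and *Bmp2* lie furthest to the right and *Gdf10* furthest to the left at P8.

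Among the BMP and GDF ligands, *Bmp2*, *Gdf6* and *Gdf15* rose at P6 and at P8 and were not called at P1. *Bmp2* (ENSMUSG00000027358, chr2:133552159-133562885, + strand), which is also named in the study and so is not independent evidence of its direction, had 3.35 and 2.51 CPM in the WT-labelled and 2.30 and 3.14 in the cKO-labelled libraries at P1, and the groups overlapped. At P6 the values were 0.615 and 1.17 against 4.39 and 3.42 (log2 fold change 2.13 ± 0.44 (SE), adjusted p = 0.00526). At P8 they were 0.118 and 0.332 against 2.05 and 1.53 (log2 fold change 2.95 ± 0.49 (SE), adjusted p = 0.00095), and the P8 values of the WT-labelled libraries rest on 7 and 24 reads. The cKO-labelled libraries thus lay above the others at P6 and P8, in a gene whose WT-labelled values were lower at each later age.

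*Gdf6* (ENSMUSG00000051279, chr4:9844372-9862345, + strand), a GDF of joint and eye development, was also level at P1, with 6.02 and 4.74 CPM against 5.71 and 6.72. At P6 it stood at 1.99 and 2.19 in the WT-labelled and 43.8 and 41.2 in the cKO-labelled libraries, a 20.3-fold rise (log2 fold change 4.34 ± 0.25 (SE), adjusted p = 8.79e-07). At P8 it stood at 0.168 and 0.416, from 10 and 30 reads, and 10.4 and 9.63, a 33.2-fold rise (log2 fold change 5.05 ± 0.29 (SE), adjusted p = 5.22e-07). The 2 labels were far apart at both ages, and the level in the cKO-labelled libraries was highest at P6. *Gdf15*, a stress-responsive and divergent member of the family, had 8.73 and 10.9 against 12.02 and 13.2 CPM at P1 (adjusted p = 0.178), 12.4 and 14.9 against 35.1 and 30.3 at P6 (log2 fold change 1.26 ± 0.14 (SE), adjusted p = 0.000111), then 4.34 and 4.70 against 18.2 and 17.1 at P8 (log2 fold change 1.97 ± 0.15 (SE), adjusted p = 3.64e-06). The cKO-labelled libraries were the higher ones at all 3 ages, past the threshold at P6 and P8.

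*Gdf10* (ENSMUSG00000021943, chr14:33923587-33937983, + strand), also known as BMP3B, moved the other way. Its CPM was 2.63 and 2.46 in the WT-labelled and 2.87 and 3.12 in the cKO-labelled libraries at P1 (adjusted p = 0.279), then 9.48 and 10.7 against 0.426 and 0.389 at P6 (log2 fold change -4.62 ± 0.14 (SE), adjusted p = 1.09e-08), then 65.7 and 71.6 against 2.28 and 2.51 at P8 (log2 fold change -4.84 ± 0.13 (SE), adjusted p = 2.56e-09). The WT-labelled level was higher at each later age. The cKO-labelled level was lowest at P6 and just below its P1 values at P8, so that the groups were 24.6-fold and 28.6-fold apart at P6 and P8. *Bmp4*, a BMP that promotes astrocyte differentiation, had 9.62 and 8.52 against 17.7 and 15.9 CPM at P1 (log2 fold change 0.89 ± 0.090 (SE), adjusted p = 0.000168), 38.9 and 41.4 against 51.5 and 47.03 at P6 (log2 fold change 0.29, under the fold threshold) and 74.1 and 70.2 against 31.3 and 31.97 at P8 (log2 fold change -1.19 ± 0.088 (SE), adjusted p = 3.38e-06). It was therefore higher under the cKO label at P1 and lower at P8, with no overlap at either age. *Bmp6*, a BMP that also governs hepcidin in the liver, had 119.6 and 126 against 118 and 115 CPM at P1, 62.8 and 69.8 against 64.8 and 62.7 at P6, then 65.2 and 61.8 against 31.6 and 31.8 at P8, and was called at P8 alone (log2 fold change -1.001 ± 0.063 (SE), adjusted p = 1.03e-06).

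*Bmp7* and *Gdf11*, a GDF of axial patterning, were not called at any age, with log2 fold changes of 0.52 and -0.20 at P8 (adjusted p = 0.0903 and 0.212). Between the labels *Gdf10* had the order of the summed fibroblast markers at all 3 ages, higher under the cKO label at P1 (not called) and lower at P6 and P8. *Bmp4* had it at P1 and P8 but not at P6, where *Bmp4* was higher under the cKO label and the markers were lower (7694 to 7773 against 2457 to 2635 CPM). At P8 the markers summed to 28855 to 30999 against 8191 to 8434 CPM and at P1 to 378 to 402 against 2659 to 2697. The part of these cells in the result was not tested. *Bmp4* and *Bmp6* have antisense genes over part of an exon (*Gm15217* and *Txndc5*), whose reads cannot be told apart without the strand setting.

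**Figure D3:**
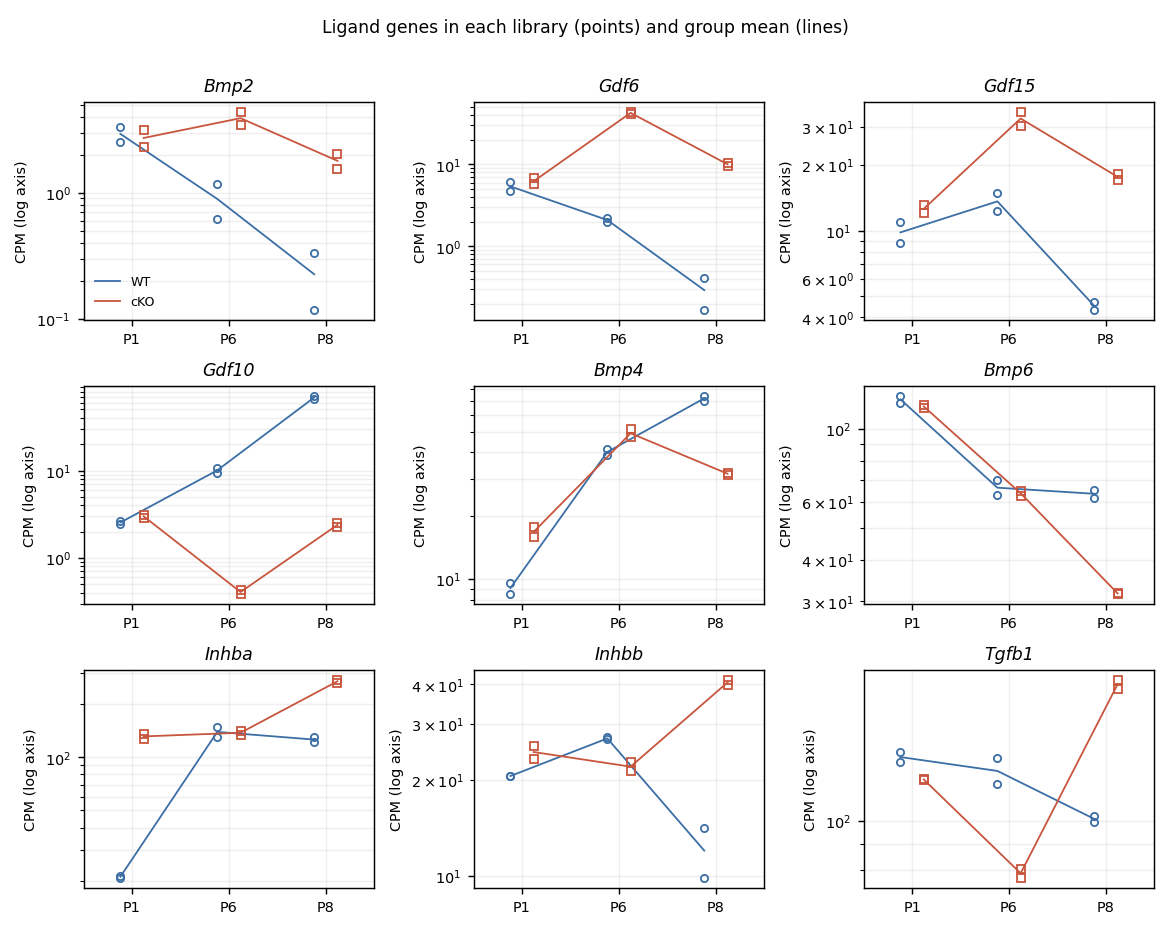
CPM (log axis) of 9 ligand genes at P1, P6 and P8 in each library (circles WT-labelled, squares cKO-labelled, lines through the means of 2 libraries). *Bmp2*, *Gdf6* and *Gdf15* separate upwards under the cKO label from P6, *Gdf10* separates downwards from P6, and *Inhba* is apart at P1 and P8 but level at P6.

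The activin subunits rose at P8, and *Inhba* already at P1. *Inhba* (ENSMUSG00000041324, chr13:16011851-16031621, + strand), which encodes the subunit of activin A, had 20.8 and 21.4 CPM in the WT-labelled and 135 and 128 in the cKO-labelled libraries at P1 (log2 fold change 2.64 ± 0.070 (SE), adjusted p = 9.52e-09). Its values overlapped at P6 (148 and 131 against 141 and 134) and parted again at P8 (121 and 131 against 275 and 265, log2 fold change 1.10 ± 0.066 (SE), adjusted p = 7.47e-07). The WT-labelled values at P6 overlapped the cKO-labelled values at P1. *Inhbb*, the subunit of activin B, had 20.6 and 20.5 against 25.6 and 23.4 CPM at P1, 27.2 and 26.8 against 22.8 and 21.3 at P6, then 14.1 and 9.85 against 39.8 and 41.3 at P8, where it rose (log2 fold change 1.76 ± 0.14 (SE), adjusted p = 7.23e-06). Its groups did not overlap at any age, but the order at P6 was the reverse of the others and not called (adjusted p = 0.166).

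Of the TGF-beta ligands, *Tgfb1*, the form best known from immune cells and injury, had 129.95 and 136 against 119.9 and 120.4 CPM at P1, 118 and 132 against 80.6 and 77.4 at P6 (log2 fold change -0.66 ± 0.059 (SE), adjusted p = 2.23e-05), then 102 and 99.3 against 180.2 and 187 at P8 (log2 fold change 0.87 ± 0.059 (SE), adjusted p = 1.81e-06). It fell at P6 and rose at P8, without overlap, and the fall at P6 was under the fold threshold without P6 WT replicate 2 (log2 fold change -0.58). *Tgfb2* had 82.6 and 84.3 against 91.9 and 91.2 CPM at P1, 56.8 and 53.2 against 62.4 and 68.4 at P6, then 40.6 and 40.2 against 63.5 and 64.4 at P8, where it rose (log2 fold change 0.66 ± 0.060 (SE), adjusted p = 1.46e-05). *Tgfb3* passed the adjusted p at P1 (log2 fold change 0.23, adjusted p = 0.0288) but not the fold change at any age. Microglia and macrophage markers moved with *Tgfb1* at P8 (2989.9 to 3053 against 5921 to 5932 CPM) and at P6 (2834 to 2909 against 2388 to 2471), and their part in the result was not tested.

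Among the receptors, the co-receptor gene *Tgfbr3* and the BMP type I receptor gene *Bmpr1b* changed most. *Tgfbr3* (ENSMUSG00000029287, chr5:107106570-107289629, - strand), which encodes betaglycan and presents TGF-beta2 to the signalling receptors, had 13.2 and 12.8 CPM in the WT-labelled and 20.7 and 16.4 in the cKO-labelled libraries at P1 (log2 fold change 0.51, adjusted p = 0.0104, under the fold threshold). At P6 it had 58.3 and 54.7 against 23.1 and 22.00 (log2 fold change -1.33 ± 0.10 (SE), adjusted p = 6.98e-06) and at P8 134 and 143 against 34.8 and 36.6 (log2 fold change -1.96 ± 0.10 (SE), adjusted p = 2.64e-07). Its order between the labels was the same as that of the summed fibroblast markers at all 3 ages (P6 7694 to 7773 against 2457 to 2635 CPM), and their part in the result was not tested. Part of its exons is shared with *Gm43422* on the same strand.

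*Bmpr1b* (ENSMUSG00000052430, chr3:141837136-142169425, - strand) had 4.36 and 5.08 against 5.07 and 5.11 CPM at P1, 7.02 and 7.65 against 22.3 and 20.6 at P6 (log2 fold change 1.55 ± 0.15 (SE), adjusted p = 4.56e-05), then 5.35 and 4.07 against 7.27 and 7.95 at P8 (log2 fold change 0.69 ± 0.15 (SE), adjusted p = 0.0055). The groups overlapped at P1 and were apart at P6 and P8, although at P8 the fold change fell under the threshold without P8 WT replicate 2 (log2 fold change 0.51). *Bmpr1a*, another BMP type I receptor gene, had 176 and 171 against 181 and 174 CPM at P1, 226 and 216 against 193 and 207 at P6, then 242 and 248 against 159 and 160.3 at P8, where it fell (log2 fold change -0.62 ± 0.047 (SE), adjusted p = 3.79e-06). At P8 *Bmpr1a* and *Bmpr1b* therefore went opposite ways, and *Acvr1*, a further BMP type I receptor gene, was lower under the cKO label but under the fold threshold (log2 fold change -0.45, adjusted p = 0.00523).

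*Tgfbr2*, the type II receptor gene for TGF-beta, had 233 and 225 against 216 and 228 CPM at P1, 310.00 and 296 against 287 and 293 at P6, then 383 and 377 against 602 and 593 at P8, where it rose (log2 fold change 0.65 ± 0.040 (SE), adjusted p = 8.65e-07), as the microglia and macrophage markers did. Its partner *Tgfbr1*, the type I receptor gene, had a log2 fold change of -0.52 at P1 (adjusted p = 0.00202) and 0.11 at P8 (adjusted p = 0.297), and was not called. *Bmpr2*, *Acvr1*, *Acvr1b* and *Acvr2a*, which encode BMP and activin receptors of either type, were not called at any age, with log2 fold changes between -0.45 (*Acvr1* at P8) and 0.40 (*Acvr2a* at P6).

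SMAD genes were called at P6 for both inhibitory members and for *Smad3*, and at P8 for *Smad9* alone. These are 37.5% and 12.5% of the SMAD genes, against 13.4% and 19.4% of all genes. *Smad6*, whose product blocks BMP receptors and SMAD1, had 20.9 and 22.1 against 25.5 and 27.2 CPM at P1, 22.9 and 26.2 against 53.2 and 42.9 at P6 (log2 fold change 0.97 ± 0.13 (SE), adjusted p = 0.000282), then 19.5 and 17.7 against 19.7 and 16.9 at P8. The labels were apart at P6 and overlapped at P8. *Smad7*, which also blocks TGF-beta receptors, had 24.9 and 24.6 against 34.00 and 33.9 at P1, 46.5 and 38.8 against 64.1 and 66.9 at P6 (log2 fold change 0.62 ± 0.088 (SE), adjusted p = 0.000509), then 27.6 and 28.8 against 35.5 and 33.00 at P8. Its cKO-labelled libraries were the higher ones at each age, and the call at P6 was lost without P6 WT replicate 2 (log2 fold change 0.49).

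*Smad3*, a transducer of TGF-beta and activin, had 101 and 107 against 125 and 115 CPM at P1, 90.04 and 87.6 against 141 and 144 at P6 (log2 fold change 0.68 ± 0.059 (SE), adjusted p = 1.79e-05), then 95.7 and 96.6 against 83.4 and 89.8 at P8. It was higher under the cKO label at P6, and at P8 it was slightly lower and not called (adjusted p = 0.0765). *Smad9* (ENSMUSG00000027796, chr3:54755582-54801257, + strand), the least abundant of the 3 BMP-activated SMAD genes per length, had 9.49 and 9.14 against 8.89 and 7.25 CPM at P1, 14.9 and 16.05 against 12.1 and 15.3 at P6, then 22.01 and 26.3 against 6.21 and 5.86 at P8, a 4.01-fold fall (log2 fold change -2.002 ± 0.15 (SE), adjusted p = 4.5e-06). The WT-labelled level was higher at each later age, and the cKO-labelled level at P8 was below that of every other group. *Smad1*, *Smad2*, *Smad4* and *Smad5* were not called at any age, with log2 fold changes between -0.23 and 0.42. The upper of these, *Smad2* at P8, came from cKO-labelled libraries of 53.96 and 32.4 CPM.

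The secreted antagonists held the largest rise of all members. *Grem1* (ENSMUSG00000074934, chr2:113746164-113758646, - strand), whose product gremlin binds BMP2 and BMP4, had 1.94 and 1.88 CPM in the WT-labelled and 1.48 and 1.32 in the cKO-labelled libraries at P1 (adjusted p = 0.203). At P6 it had 8.22 and 6.85 against 14.1 and 12.9 (log2 fold change 0.84 ± 0.17 (SE), adjusted p = 0.00459), and at P8 0.673 and 0.429 against 23.8 and 22.5, a 42.2-fold rise (log2 fold change 5.40 ± 0.21 (SE), adjusted p = 3.67e-08). The WT-labelled level was lower at P8 than at P6 and the cKO-labelled level was higher, and the WT-labelled values at P8 rest on 40 and 31 reads.

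*Nog* (ENSMUSG00000048616, chr11:89300638-89302332, - strand), which encodes the BMP antagonist noggin, had 6.35 and 5.19 against 8.18 and 9.58 CPM at P1 (adjusted p = 0.125), 5.54 and 7.80 against 16.4 and 15.3 at P6 (log2 fold change 1.25 ± 0.22 (SE), adjusted p = 0.00204), then 9.62 and 9.89 against 4.30 and 2.84 at P8 (log2 fold change -1.45 ± 0.22 (SE), adjusted p = 0.000607). It rose at P6 and fell at P8, without overlap. *Chrd*, which encodes chordin, had 1.69 and 1.81 against 2.75 and 2.26 CPM at P1, 6.77 and 7.49 against 4.84 and 5.80 at P6, then 10.2 and 10.5 against 5.80 and 5.25 at P8, and its fall was called at P8 (log2 fold change -0.90 ± 0.16 (SE), adjusted p = 0.00152). *Chrd* shares exon sequence with the antisense gene *Thpo*. At P8 the BMP antagonist genes *Nog* and *Chrd* thus fell while *Grem1* rose.

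*Fstl1* (ENSMUSG00000022816, chr16:37776873-37836514, + strand), a secreted follistatin-like glycoprotein and the most abundant member per length, had 379 and 370.3 against 599.6 and 591 CPM at P1 (log2 fold change 0.67 ± 0.029 (SE), adjusted p = 3.67e-07), 1448 and 1429 against 1147 and 1126 at P6 (log2 fold change -0.34, under the fold threshold) and 2177 and 2135 against 1131 and 1122 at P8 (log2 fold change -0.94 ± 0.029 (SE), adjusted p = 7.27e-09). *Fstl1* and *Chrd* lay higher under the cKO label at P1 and lower at P6 and P8, without a call for either at P6 or for *Chrd* at P1, in the order of the summed fibroblast markers (P1 378 to 402 against 2659 to 2697, P8 28855 to 30999 against 8191 to 8434 CPM), whose part in the result was not tested. *Fst*, which encodes the activin-binding follistatin, had 42.5 and 47.9 against 44.9 and 43.5 CPM at P1, 43.05 and 44.8 against 48.5 and 46.5 at P6, then 21.8 and 20.8 against 30.98 and 33.5 at P8, where it rose by 1.51-fold (log2 fold change 0.60 ± 0.078 (SE), adjusted p = 0.000197), a call lost in 5 alternatives. *Bambi*, a decoy receptor without a kinase domain, had 16.8 and 19.4 against 18.6 and 18.3 CPM at P1, 11.7 and 13.9 against 19.9 and 17.9 at P6 (log2 fold change 0.56, adjusted p = 0.026) and 5.21 and 7.30 against 10.5 and 10.1 at P8 (log2 fold change 0.72 ± 0.16 (SE), adjusted p = 0.00617). Both lay higher under the cKO label at P8, and *Bambi* lost its call there without P8 WT replicate 1 (log2 fold change 0.50).

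The ID genes, which encode helix-loop-helix proteins without a DNA-binding region, were called for 2 of 4 members, each at 1 age. This makes 25% of them at P6 and 25% at P8, against 13.4% and 19.4% of all genes. *Id1* (ENSMUSG00000042745, chr2:152736251-152737410, + strand) had 58.2 and 60.9 against 61.2 and 61.2 CPM at P1, 76.01 and 84.1 against 129 and 119 at P6 (log2 fold change 0.63 ± 0.085 (SE), adjusted p = 0.000353), then 44.8 and 38.1 against 34.1 and 36.1 at P8 (log2 fold change -0.24, adjusted p = 0.0541). It rose at P6, a call that was lost without P6 WT replicate 1 or without P6 cKO replicate 1 (log2 fold changes 0.56 and 0.58). *Id3* had 117 and 114 against 112 and 117 at P1, 151 and 162 against 142 and 136 at P6, then 168 and 152 against 102 and 100 at P8, where it fell (log2 fold change -0.66 ± 0.059 (SE), adjusted p = 1.33e-05). Its libraries overlapped at P1 and were apart at P6 and P8.

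*Id4* passed the adjusted p at P1 and P8 with log2 fold changes of -0.41 and -0.53 (adjusted p = 0.0064 and 0.000316), both under the fold threshold. *Id2* had 82.03 and 82.4 CPM in the WT-labelled and 43.1 and 102 in the cKO-labelled libraries at P8, so that 1 library labelled cKO lay below and the other above both libraries labelled WT. Without P8 cKO replicate 2 its log2 fold change was -0.93 (adjusted p = 7.08e-06 in edgeR), against -0.18 with all libraries (adjusted p = 0.73). *Id1* and *Smad6* were higher at P6 together with the neural stem and progenitor markers (1251 to 1278 against 2256 to 2281 CPM, 3 called up and 1 down), whose part in the result was not tested.

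**Figure D4:**
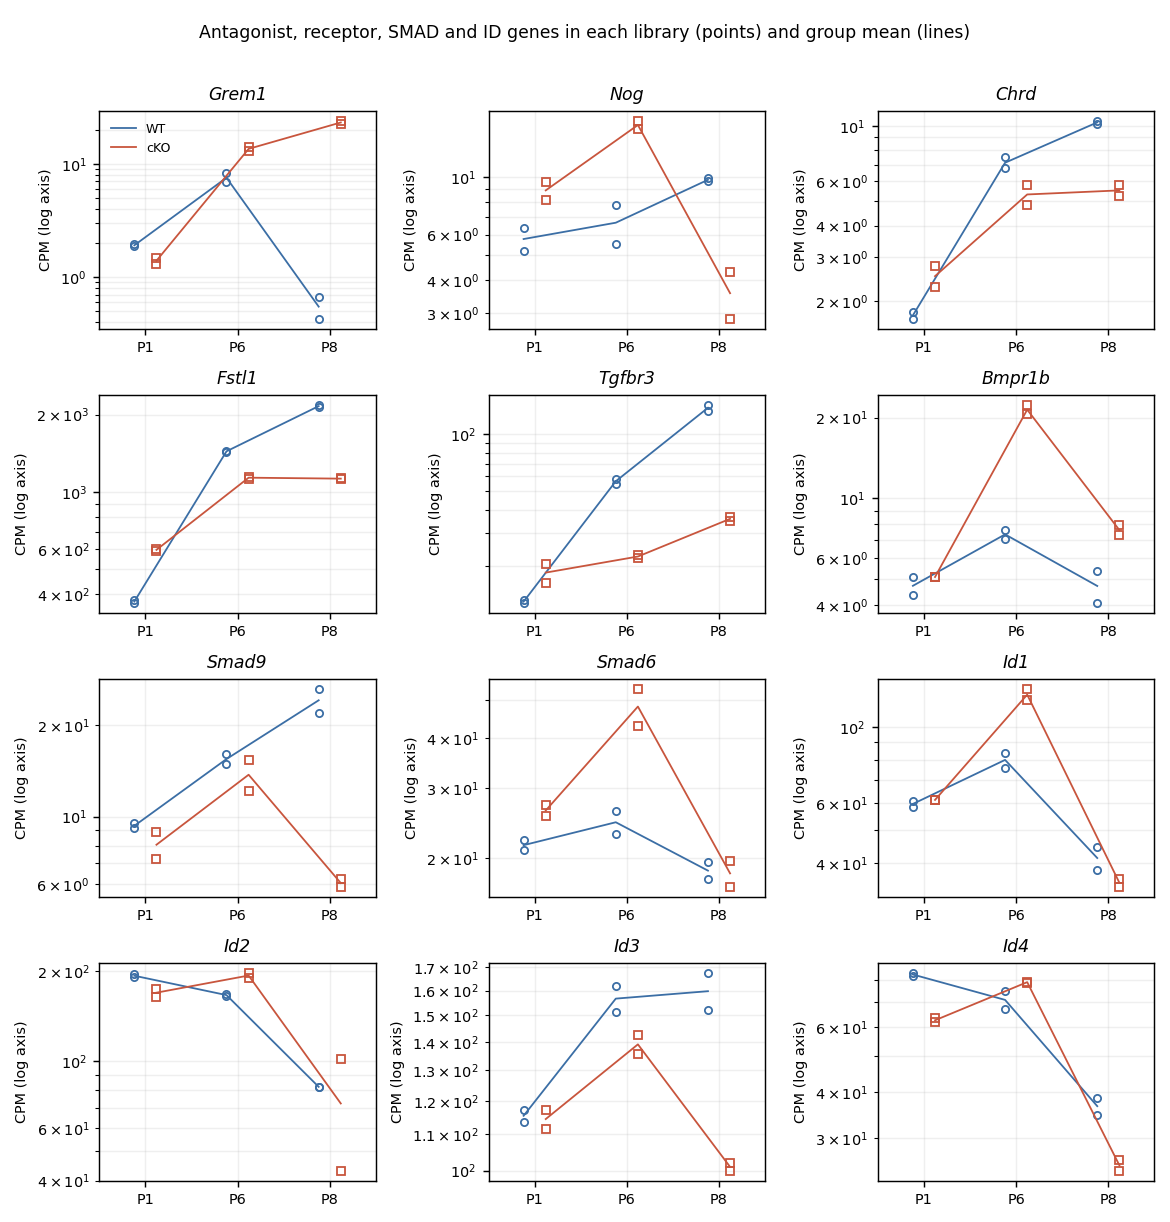
CPM (log axis) of 12 antagonist, receptor, SMAD and ID genes at P1, P6 and P8 in each library (circles WT-labelled, squares cKO-labelled, lines through the means of 2 libraries). *Grem1* parts most at P8, *Nog* crosses between P6 and P8, *Tgfbr3* and *Fstl1* lie lower under the cKO label from P6, and the 2 P8 libraries labelled cKO disagree for *Id2*.

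Changes with the age of the mice were also compared within each label. Each age was a separate set of cultures. These steps, and the interaction terms below, therefore cannot be told apart from differences between sets of cultures. From P1 to P6, 15 members changed in the WT-labelled libraries (11 up and 4 down, 37.5%, against 23% of all genes, 12.2% up and 10.8% down) and 16 in the cKO-labelled libraries (12 up and 4 down, 40.0%, against 21.2%, 10.8% up and 10.3% down). From P6 to P8, 17 changed in the former (5 up and 12 down, 42.5%, against 18.7%, 8.53% up and 10.2% down) and 23 in the latter (8 up and 15 down, 57.5%, against 23.7%, 11.6% up and 12% down). Under the WT label *Inhba*, *Bmp4*, *Tgfbr3* and *Chrd* rose most from P1 to P6, with log2 fold changes of 2.73, 2.15, 2.12 and 2.02. *Inhba* was level over that step under the cKO label (log2 fold change 0.07, adjusted p = 0.457), and so, under the fold threshold, was *Tgfbr3* (0.28, adjusted p = 0.0483). Opposite calls were found for *Gdf6*, which fell from P1 to P6 under the WT label (-1.36) and rose under the cKO label (2.77), and for *Gdf10*, with 1.99 and -2.87. From P6 to P8, *Grem1* went -3.78 and 0.77, *Bmp4* 0.85 and -0.64, *Smad9* 0.64 and -1.19 and *Inhbb* -1.17 and 0.88 under the WT and the cKO label. *Id1* and *Id4* fell over this step under both labels (-0.95 and -0.95 for WT, -1.82 and -1.64 for cKO).

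The difference between the labels itself changed with age. An interaction term in edgeR at an adjusted p below 0.05 was found for 17 members between P1 and P6 (42.5%, against 15.4% of all genes), for 23 between P6 and P8 (57.5%, against 21.7%) and for 26 between P1 and P8 (65.0%, against 25.7%). These terms share libraries, so that they are not independent of each other. The largest from P1 to P6 was that of *Gdf10* (-4.86, adjusted p = 5.52e-08), and the largest from P6 to P8 that of *Grem1* (4.56, adjusted p = 1.57e-06). *Nog* followed with -2.70 from P6 to P8 (adjusted p = 0.000174), the step over which its order between the labels turned.

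Other genes of the pathways were taken from a list of 81, of which 57 were tested. At P1, 11 of them rose and 1 fell, at P6, 6 rose and 11 fell, and at P8, 11 rose and 13 fell, or 21.1%, 29.8% and 42.1%, where the shares of all genes were 4.88%, 13.4% and 19.4%. Of these genes, 32 were called at 1 or more time points and 6 at all 3, again without a share of all genes to be set against. *Ctgf*, a matrix-associated TGF-beta target, rose at all 3 ages, from 118 and 120.2 to 479 and 497 CPM at P1, 993 and 969.7 to 1914 and 1752 at P6, then 462 and 458 to 929 and 936 at P8 (log2 fold changes 2.03, 0.90 and 1.02). *Tgfbi*, a TGF-beta-induced matrix protein, fell at all 3, with -0.91, -0.69 and -1.30. Both are listed as targets of the same pathway, and they went opposite ways at each age.

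The other genes called at all 3 ages were *Tll1*, a protease that cleaves chordin (1.45, -3.07 and -1.78), the latent TGF-beta binding protein gene *Ltbp2* (0.61, -1.56 and -1.19), the BMP-responsive homeobox gene *Msx1* (1.55, -2.64 and -1.69) and the collagen gene *Col7a1* (3.29, -2.67 and 1.67). The first 3 rose at P1 and fell at P6 and P8, the order of the summed fibroblast markers, whose part was not tested. *Ltbp1*, which tethers latent TGF-beta to the matrix, went from 53.1 and 51.8 to 176 and 169.5 CPM at P6 and from 20.4 and 20.9 to 127 and 136 at P8 (log2 fold changes 1.72 and 2.67, adjusted p = 1.43e-08 and 7.96e-10). Its libraries labelled cKO lay above those labelled WT at both ages.

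*Lrrc32*, which displays latent TGF-beta on the cell surface, rose at P1 (2.18), fell at P6 (-2.15) and had -0.19 at P8 (adjusted p = 0.165). The BMP modulator gene *Bmper* (2.20 and -2.16) had the same pair of calls. *Snai2*, which encodes a repressor linked to mesenchymal change, fell at P6 and P8 (-1.47 and -1.10). Among co-receptors at P8, *Eng*, which encodes endoglin, rose (1.29) and *Neo1*, which encodes the RGM receptor neogenin, fell (-1.56). Of 12 intracellular regulators, 1 rose at P6 and 2 rose and 1 fell at P8, among them the ubiquitin ligase genes *Smurf1*, which rose at P6 (0.66), and *Nedd4l*, which rose at P8 (0.83). These are 8.33% and 25.0% of the 12, against 13.4% and 19.4% of all genes.

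**Figure D5:**
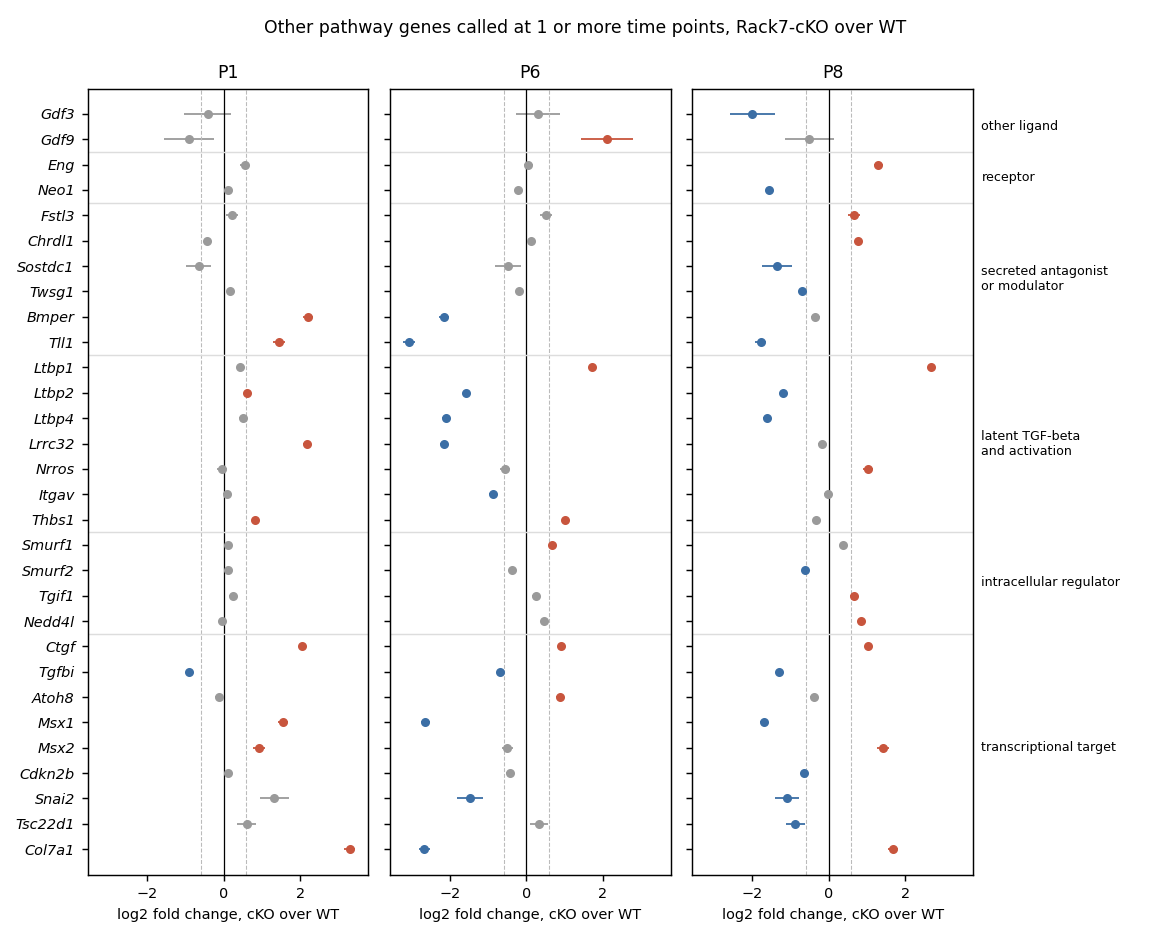
Log2 fold change of the libraries labelled cKO over those labelled WT for 30 of the 32 other pathway genes called at 1 or more time points, by role, at P1, P6 and P8 (points, with bars of 1 SE; red called up, blue called down, grey not called; dashed lines at a fold change of 1.5). *Ctgf* lies to the right and *Tgfbi* to the left at all 3 ages, and *Tll1*, *Ltbp2* and *Msx1* turn from right to left after P1.

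Levels were compared between members as CPM per kilobase of annotated exons. Over all libraries *Fstl1* had the highest mean level (232 CPM per kilobase), ahead of *Id3* (73.2), *Id2* (60.00), *Id1* (57.7) and *Tgfbr2* (41.1), and *Bmp2* had the lowest (0.584). The order of the ligands by level was not the same in each group. *Tgfb3* had the highest ligand level in all groups at P1 and P6 (36.5 and 42.9 at P1, 29.5 and 32.9 at P6, WT and cKO label), and at P8 it was *Bmp4* under the WT label (32.1) and *Inhba* under the cKO label (42.2). *Bmp6* lay above *Bmp4* at P1 (31.4 and 29.9 against 4.03 and 7.45) and below it in the means of all 4 later groups. These orders were not tested. At P8 under the cKO label *Grem1* had 5.57 and *Gdf6* 2.84 CPM per kilobase, still below *Bmp6* at 8.14 and *Bmp4* at 14.1. In the order of mean levels over all libraries *Gdf6*, *Gdf10* and *Grem1*, the members furthest from a fold change of 1, ranked 32, 34 and 36 of 40.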

How the data were processed

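The RNA-seq of 12 libraries in 6 groups was used. The authors deposited raw counts, whole numbers for 18903 genes without normalization, after mapping with HISAT2 to GRCm38. The tool that counted reads on genes, the annotation and the strand setting were not given in the sources used here. Groups and replicate numbers came from the labels, and the 44 genes, the marker lists and the other pathway genes were chosen with earlier results of these data known. All 12 libraries were fitted together in edgeR 4.0.16 (R 4.3.3, limma 3.58.1) with 1 mean per group, edgeR's filter on low counts, TMM factors and the robust quasi-likelihood test, and p was adjusted over all 17938 genes tested. The contrasts were cKO against WT at each age, the steps with age within a label, and interaction terms, which were called by adjusted p alone. The SE was derived as the absolute log2 fold change divided by the square root of the quasi-likelihood F statistic. It is therefore not independent of the p-value. Replicates differed by more than counting noise (chi-square per degree of freedom 30.5 to 47.1, Spearman correlation across genes 0.991 to 0.993), and the common biological coefficient of variation was 0.178.

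All 44 genes are named, with values in every library for those called at 1 or more ages. Other pathway genes are named where called at all 3 ages, or as up to 2 per role with the largest log2 fold change among those called with a mean CPM of 1 or more (2 genes that this rule names are not reported here), and the first 3 markers of a list where it touches a result. Gene positions and exon lengths are from GENCODE vM21 (GRCm38). Of the tested members, 9 share exon bases with an antisense and 2 with a same-strand gene. The former are *Bmp4*, *Bmp6*, *Tgfb2*, *Tgfb3*, *Bmpr1a*, *Acvr2a*, *Chrd*, *Fst* and *Id4*, and the latter *Tgfbr3* and *Smad5*. Antisense reads cannot be told apart in any of the former without the strand setting. Of the 44 genes, 30 matched the RefSeq promoter table (GRCm38.p6). The fit was tested on simulated data for cKO against WT at P8, with 200 changed genes among 17938, drawn from genes above a floor of expected reads. There edgeR recovered 61.0% of them with 6 false calls, and DESeq2 1.42.0 recovered 71.5% with 49 false calls. Calls in the simulation were by adjusted p alone and the changed share was smaller than that called in the data. These figures therefore do not describe the rule with a fold change of at least 1.5. As alternatives, the threshold was a fold change of 2 or an unadjusted p, the scaling was by DESeq2 size factors, the test was DESeq2 on all libraries, low counts were kept, the replicate number entered as a block, each age was fitted alone, and every library was left out in turn. A lone library left in a group is then taken to vary as the other groups do.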

Additional observations from a re-analysis of the deposited data

Results flagged for a closer look

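Each result here is listed because the difference between the libraries labelled cKO and WT was itself unlike at 2 time points, by an interaction term in edgeR with an adjusted p below 0.05. This held for 17 members between P1 and P6, 23 between P6 and P8 and 26 between P1 and P8. These are 42.5%, 57.5% and 65.0% of the members, against 15.4%, 21.7% and 25.7% of all genes. The values are the later log2 fold change minus the earlier one, and they share libraries.

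Among BMP and GDF ligands the term was positive for the genes that rose at P8 and negative for those that fell. For *Bmp2* it was 2.23 from P1 to P6 and 3.06 from P1 to P8. For *Bmp4* it was -0.59 from P1 to P6, -1.48 from P6 to P8 and -2.08 from P1 to P8. For *Bmp6* it was -0.94 from P6 to P8 and -0.93 from P1 to P8. The largest ligand terms belonged to *Gdf6* and *Gdf10*. For *Gdf6* it was 4.13 from P1 to P6 and 4.84 from P1 to P8. For *Gdf10* it was -4.86 from P1 to P6 and -5.08 from P1 to P8. For *Gdf15* it was 0.91 from P1 to P6, 0.70 from P6 to P8 and 1.61 from P1 to P8. All 3 terms between P6 and P8 were positive for the activin subunits and *Tgfb1*. For *Inhba* it was -2.66 from P1 to P6, 1.11 from P6 to P8 and -1.54 from P1 to P8. For *Inhbb* it was 2.05 from P6 to P8 and 1.51 from P1 to P8. For *Tgfb1* it was -0.52 from P1 to P6, 1.53 from P6 to P8 and 1.01 from P1 to P8. Of the other TGF-beta ligands, *Tgfb3* had no term past the threshold. For *Tgfb2* it was 0.41 from P6 to P8 and 0.53 from P1 to P8.

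From P1 to P8 the term was positive for the receptor genes of TGF-beta and negative for their co-receptor gene. For *Tgfbr1* it was 0.45 from P1 to P6 and 0.64 from P1 to P8. For *Tgfbr2* it was 0.72 from P6 to P8 and 0.70 from P1 to P8. For *Tgfbr3* it was -1.84 from P1 to P6, -0.63 from P6 to P8 and -2.47 from P1 to P8. BMP receptor genes had negative terms between P6 and P8 where any was found over that step. For *Bmpr1a* it was -0.47 from P6 to P8 and -0.65 from P1 to P8. For *Bmpr1b* it was 1.44 from P1 to P6 and -0.85 from P6 to P8. For *Bmpr2* it was -0.40 from P1 to P8. Activin and BMP receptor genes that were called at no single age are among them. For *Acvr1* it was -0.64 from P1 to P8. For *Acvr1b* it was 0.33 from P6 to P8. For *Acvr2a* it was -0.60 from P6 to P8 and -0.50 from P1 to P8. Of the 8 SMAD genes, 3 had a term past the threshold, and all 3 had a negative one between P6 and P8 (37.5%, against 21.7% of all genes in either direction). For *Smad3* it was 0.48 from P1 to P6, -0.83 from P6 to P8 and -0.35 from P1 to P8. For *Smad6* it was 0.68 from P1 to P6 and -0.99 from P6 to P8. For *Smad9* it was -1.83 from P6 to P8 and -1.80 from P1 to P8. *Grem1* had the largest term of all members. For *Nog* it was -2.70 from P6 to P8 and -2.08 from P1 to P8. For *Chrd* it was -0.94 from P1 to P6 and -1.42 from P1 to P8. For *Grem1* it was 1.30 from P1 to P6, 4.56 from P6 to P8 and 5.85 from P1 to P8. The follistatin family and *Bambi* had smaller ones. For *Fst* it was 0.48 from P6 to P8 and 0.63 from P1 to P8. For *Fstl1* it was -1.01 from P1 to P6, -0.60 from P6 to P8 and -1.60 from P1 to P8. For *Bambi* it was 0.69 from P1 to P8. The 3 ID genes with a term had a negative one between P6 and P8 (75% of the ID genes, against 21.7% of all genes in either direction). For *Id1* it was 0.59 from P1 to P6 and -0.87 from P6 to P8. For *Id3* it was -0.49 from P6 to P8 and -0.65 from P1 to P8. For *Id4* it was 0.57 from P1 to P6 and -0.69 from P6 to P8.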

How the results depend on the processing

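Each of 40 members at 3 ages was recomputed under 17 alternatives, and no call among 2040 values changed direction. Of 38 calls, 32 held in every one of these alternatives and 6 were lost in 1 or more, all of them by the fold change alone, at a size of 0.49 to 0.58 on the log2 scale in the alternatives that lost them (*Tgfb1*, *Smad7* and *Id1* at P6, *Bmpr1b*, *Fst* and *Bambi* at P8). For 6 values a call appeared with 1 library left out, as for *Id2*, *Smad2*, *Bmp7* and *Id4* at P8, *Bambi* at P6 and *Tgfbr3* at P1. A threshold of 2 on the fold change moved the counts most, to 1 member up and 0 down at P1, 5 up and 2 down at P6, and 6 up and 6 down at P8 (2.5%, 17.5% and 30.0% of members, against 3.08%, 8.27% and 11.2% of all genes). With it, 9 members changed from P1 to P6 and 10 from P6 to P8 under the WT label, and 8 and 13 under the cKO label (all genes 14.7%, 11.2%, 12.3% and 14.8%), where fewer genes can pass by construction. With 1 library left out, 3 to 4 members were up at P1, 9 to 11 up and 2 to 3 down at P6, and 11 to 12 up and 10 to 11 down at P8. No shared effect of the replicate number was seen, since the correlation of deviations between groups lay between -0.063 and 0.044. Between the labels at P1, P6 and P8 it was -0.030, -0.0055 and -0.063. This cannot exclude that samples of the same number were prepared together. With the replicate block 0 of the members' calls were lost and 0 gained, leaving 10 up at P6 and 12 up at P8. Genes at few reads, such as *Bmp2* and *Gdf6* under the WT label at P8, have the least certain fold changes, with log2 values of 2.42 to 3.90 and 4.59 to 5.88 over the alternatives.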
